A study of Mus musculus with 7 samples.

Results

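The core circadian clock loop was compared here between separate whole liver samples of male mice. These were taken either before or after Cre was delivered to remove floxed Dicer1 in hepatocytes. The set holds 10 genes chosen by symbol: the activators Arntl (now also called Bmal1), Clock and Npas2, the repressors Cry1, Cry2, Per1, Per2 and Per3, and the nuclear receptor repressors Nr1d1 and Nr1d2 (REV-ERB alpha and beta). Of these 10, 9 had a probe set with a single gene symbol among the 16819 genes compared, and each of the 9 had 1 such probe set. Npas2 was not analysed here.

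The mice were Dicer1 fl/fl males of mixed strain (129S4 and C57BL/6) that were given AAV8-Ttr-Cre at an age of 8 to 10 weeks. In this adeno-associated virus the transthyretin promoter drives Cre recombinase in hepatocytes, so other liver cells keep the floxed gene. Livers were taken after a fast of 4 hours, and each of the 7 samples was run on 1 Affymetrix array. There were 3 control samples (0 weeks), 2 samples taken 2 weeks after the virus and 2 samples taken 4 weeks after it. All groups carried the floxed alleles. The labels name biological replicates without saying whether each is 1 animal. No group received a virus without Cre, no control was taken at 2 or 4 weeks, and no label gives the hour of day of the harvests, so virus, Cre, elapsed weeks, time of day and loss of Dicer1 cannot be told apart. In whole liver, fewer cells of a type and less RNA per cell cannot be told apart either.

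In the mammalian clock, ARNTL pairs with CLOCK or with its paralog NPAS2 and binds E-box elements to switch on the Per, Cry and Nr1d genes. The PER and CRY proteins accumulate and block that pair, which closes the main loop. In a second loop, NR1D1 and NR1D2 repress Arntl through RORE elements, at which the ROR receptors activate. In mouse liver the transcripts of Arntl, Clock, Npas2 and Cry1 are high around the end of the night, whereas those of the Nr1d, Per and Cry2 genes are high during the day or around dusk. The first 4 genes are called the dawn class below, and the other 6 the day class.

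The promoters below show exact matches to some forms of these elements near the start sites of members whose transcripts changed. Each window runs from 250 bases before to 50 bases after a RefSeq start site (build GRCm38.p6), 5′ to 3′ on the strand of the gene, and capitals mark the motif matches. Windows were given for 9 of the 10 members (not Per2), 13 windows in all. Searched on both strands were the E-box CACGTG, its variant CACGTT, the D-box TTANGTAA bound by the DBP family, and the RORE cores TAGGTCA and TGGGTCA. No motif overlapped another in these windows.
Arntl, chr7:113207261-113207560, + strand, a RORE core: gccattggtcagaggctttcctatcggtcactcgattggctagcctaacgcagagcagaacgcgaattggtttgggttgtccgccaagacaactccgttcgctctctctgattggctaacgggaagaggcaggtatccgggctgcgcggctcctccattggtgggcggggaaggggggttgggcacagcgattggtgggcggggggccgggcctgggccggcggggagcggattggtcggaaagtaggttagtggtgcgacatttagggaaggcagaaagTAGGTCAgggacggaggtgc
Nr1d1, chr11:98775328-98775627, - strand, an E-box variant: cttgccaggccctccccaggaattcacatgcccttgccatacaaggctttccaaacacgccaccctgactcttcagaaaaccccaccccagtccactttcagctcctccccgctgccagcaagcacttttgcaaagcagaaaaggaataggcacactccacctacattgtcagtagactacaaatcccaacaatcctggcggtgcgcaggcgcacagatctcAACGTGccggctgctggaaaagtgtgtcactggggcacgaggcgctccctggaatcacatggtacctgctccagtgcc
Per1, chr11:69098699-69098998, + strand, an E-box: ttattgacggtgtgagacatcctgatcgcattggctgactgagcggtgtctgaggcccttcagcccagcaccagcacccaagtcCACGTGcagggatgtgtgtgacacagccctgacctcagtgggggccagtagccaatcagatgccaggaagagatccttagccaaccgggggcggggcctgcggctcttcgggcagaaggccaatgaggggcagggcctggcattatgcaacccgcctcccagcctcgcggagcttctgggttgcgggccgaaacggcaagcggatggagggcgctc
Per3, chr4:151044616-151044915, - strand, a pair of D-boxes: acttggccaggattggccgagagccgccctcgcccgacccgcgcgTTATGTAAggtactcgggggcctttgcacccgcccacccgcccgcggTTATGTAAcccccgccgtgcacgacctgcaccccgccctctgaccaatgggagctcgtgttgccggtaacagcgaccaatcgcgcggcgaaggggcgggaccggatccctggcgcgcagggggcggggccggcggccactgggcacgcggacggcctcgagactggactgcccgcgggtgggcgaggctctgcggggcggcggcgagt

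In the Arntl window the RORE core began at base 31, counting the start site as base 1, and TAGGTCA was found in 2.61% of all 32851 promoter windows of the table. Of the 13 member windows, that Arntl window was the 1 with a RORE core of either form (TGGGTCA was in 3.98% of all windows). Per3 held its D-boxes at positions -205 and -158, counted from the start site, and 2.32% of all windows held one. The E-box CACGTG, in 7.15% of all windows, was found in the Per1 window shown, at -166, and in the Cry1 window, at -60. The variant CACGTT, in 4.68% of all windows, was found at Nr1d1, Cry1 and Cry2. The windows of Clock, Npas2 and Nr1d2 held none of these letters, nor did a second window each of Arntl and Per1. A match is a string of letters and was not tested for binding. Other forms of each element were not searched, so a window without a match may still hold one.

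All values below are log2 signals of 1 probe set per gene, so that a difference of 1 is a doubling, and levels of different genes are not set against each other. The signals of all arrays were on a common scale, with array medians from 7.07 to 7.09, and the median change of all genes was -0.002 at 2 weeks and 0.008 at 4 weeks. Dicer1 read 8.03 and 7.79 at 2 weeks and 7.97 and 8.05 at 4 weeks, against 8.73, 8.71 and 8.58 in control livers, with no overlap. It fell by 0.76 (SE 0.09, adjusted p = 0.0158, limma) at 2 weeks and by 0.66 (SE 0.09, adjusted p = 0.0159, limma) at 4 weeks. Lpl, the lipoprotein lipase gene, rose 6.68-fold and 5.56-fold (adjusted p = 0.0358 and 0.0338). Where the Dicer1 probe set lies relative to the floxed part is not known here. Of the 8 hepatocyte markers 0 were called at either time (limma, adjusted p), where 5.93% of all genes were called at 2 weeks and 9.77% at 4 weeks, so that a count of 0 is near the share of all genes. Over the mean of both times, where 12.9% of all genes were called, 1 of the 8 was, Fgb (log2 0.22, SE 0.05, adjusted p = 0.0354, limma). Their mean log2 signal lay between 13.77 and 13.80 at 2 weeks, between 13.78 and 13.79 at 4 weeks and between 13.78 and 13.79 in control livers. The highest signal on any array was 14.72, and whether a ceiling limits these markers was not tested. The pooled SD of the members within groups ranged from 0.026 (Cry2) to 0.339 (Per1, percentile 97.6 of all genes), against a median of 0.095 over all genes.

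At both times after Cre the activators Arntl and Clock rose and Per3 fell, and Per1 and Per2 also passed the test at 4 weeks. Nr1d1 fell at 2 weeks and rose at 4 weeks. Of the 9 measured members, 2 rose and 3 fell at 2 weeks, where 3.46% of all 16819 genes rose and 2.47% fell (5.93% in either direction; limma, adjusted p under 0.05). At 4 weeks 3 rose and 3 fell, against 5.15% and 4.62% of all genes (9.77% in either direction). The arrays of the 2 groups did not overlap for 8 of 9 members at 2 weeks and for 7 of 9 at 4 weeks, against 34.9% and 39.8% of all genes. Of these, 3 lay above and 5 below control at 2 weeks (17.3% and 17.5% of all genes), and 3 above and 4 below at 4 weeks (21.6% and 18.2%). Over the mean of both times, 3 members rose and 4 fell (6.79% and 6.12% of all genes, 12.9% together), and the 4 later arrays did not overlap control for 6 members, 2 above and 4 below (25.1% of all genes, 12.9% above and 12.2% below). That mean places Nr1d1 at 0.62, between its opposite values at the 2 times. The comparisons at 2 and 4 weeks share the control arrays. The members were proposed with results of these arrays in view, so these counts describe the set and do not test it.

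**Figure D1:**
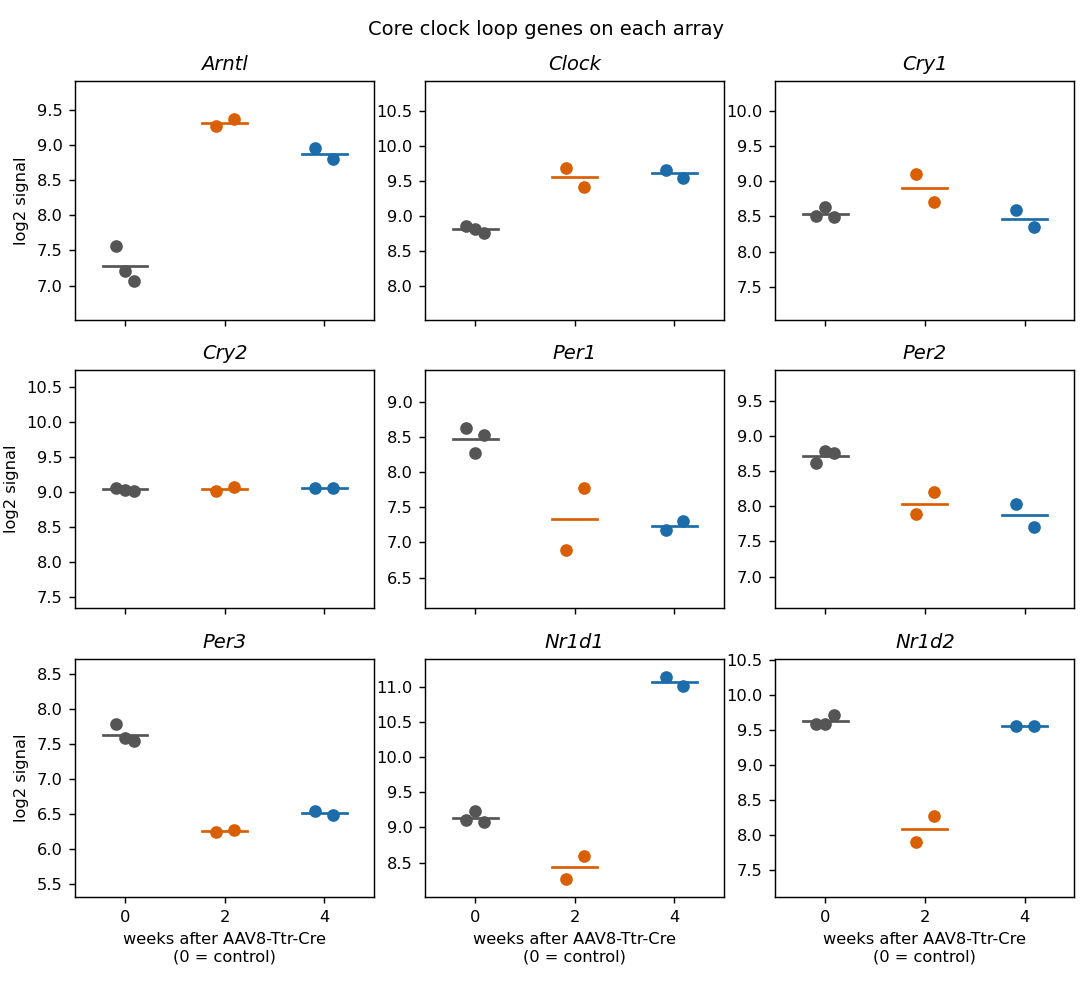
Log2 signal (vertical axis, 3.4 log2 units in every panel) of the 9 measured members on each array against weeks after AAV8-Ttr-Cre (horizontal axis), with 3 control arrays at 0 weeks and 2 arrays each at 2 and 4 weeks. Points are arrays and bars are group means. Arntl and Clock stand above control at both times and Per1, Per2 and Per3 below it, Cry2 stays at 9.01 to 9.07, and Nr1d1 lies below control at 2 weeks and above it at 4 weeks.

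Arntl, the shared partner of CLOCK and NPAS2 without which the loop stops, had the largest change of the set at 2 weeks. It read 7.57, 7.21 and 7.06 on the control arrays at 0 weeks, 9.27 and 9.37 on the 2 week arrays, and 8.96 and 8.80 on the 4 week arrays. All 4 arrays after Cre thus lay above the highest control. Arntl rose 4.12-fold at 2 weeks (log2 2.04, SE 0.16, adjusted p = 0.00732, limma, n = 2 and 3) and 3.03-fold at 4 weeks (log2 1.60, SE 0.16, adjusted p = 0.00897). The 4 week value was 0.44 below that at 2 weeks (SE 0.17, adjusted p = 0.659), a difference that did not pass the test, although the arrays of the 2 times did not overlap. The call at 4 weeks was lost without either 4 week array (adjusted p = 0.0719 and 0.0628 without replicates 1 and 2).

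Clock, the histone acetyltransferase partner of ARNTL, rose by less. It read 8.86, 8.81 and 8.76 at 0 weeks, 9.69 and 9.42 on the 2 week arrays, and 9.66 and 9.55 on the 4 week arrays, so that the control arrays lay close together and below every array after Cre. It rose 1.68-fold at 2 weeks (log2 0.75, SE 0.09, adjusted p = 0.018, limma) and 1.74-fold at 4 weeks (log2 0.80, SE 0.09, adjusted p = 0.0115). Between the 2 times it differed by 0.05 (95% interval -0.20 to 0.29). Leaving out any 1 control or 4 week array ended the call at 2 weeks, with adjusted p-values of 0.0531 to 0.0796, and at 4 weeks the call was lost without control replicate 2 or 3 or either 4 week array (0.0544 to 0.0783).

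The cryptochromes, which bind and silence the CLOCK and ARNTL pair, did not pass the test at either time. Cry1 read 8.50, 8.64 and 8.49 at 0 weeks, 9.11 and 8.70 on the 2 week arrays, and 8.59 and 8.35 on the 4 week arrays. Both 2 week arrays lay above control, mostly through replicate 1, and the 4 week arrays lay on either side of the control mean. The log2 fold changes were 0.36 at 2 weeks (SE 0.14, adjusted p = 0.207, limma) and -0.07 at 4 weeks (SE 0.14, adjusted p = 0.813). Cry2 read 9.06, 9.03 and 9.02 at 0 weeks, 9.01 and 9.07 on the 2 week arrays, and 9.05 and 9.05 on the 4 week arrays. It was the steadiest member, with a spread within groups at percentile 5.63 of all genes, and the 95% intervals of its change ran from -0.10 to 0.11 at 2 weeks and from -0.08 to 0.12 at 4 weeks.

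The Period genes, whose proteins carry the negative feedback with the cryptochromes, were lower after Cre on every array. Per3 read 7.79, 7.58 and 7.54 at 0 weeks, 6.24 and 6.28 on the 2 week arrays, and 6.55 and 6.49 on the 4 week arrays, with a wide gap between control and later arrays. Per3 fell to 38.6% of control at 2 weeks (log2 -1.37, SE 0.08, adjusted p = 0.00402, limma) and to 46.1% at 4 weeks (log2 -1.12, SE 0.08, adjusted p = 0.00573). Without 4 week replicate 1 or 2, the adjusted p of Per3 at 4 weeks was 0.0546 or 0.0554.

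Per1, which also responds quickly to hormones and other outside cues, was the most variable member between replicates. It read 8.63, 8.27 and 8.53 at 0 weeks, 6.89 and 7.77 on the 2 week arrays, and 7.18 and 7.30 on the 4 week arrays. The 2 week arrays differed widely, and both lay below the lowest control. Per1 was at -1.15 at 2 weeks (SE 0.26, adjusted p = 0.0647, limma), short of the threshold, and fell by 1.24 at 4 weeks (SE 0.26, adjusted p = 0.0438). Its change at 2 weeks was -1.58 without replicate 2 (adjusted p = 0.0413) and -0.71 without replicate 1. The call at 4 weeks was lost without any 1 of the control or 4 week arrays (adjusted p = 0.105 to 0.189).

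Per2 read 8.62, 8.79 and 8.76 at 0 weeks, 7.89 and 8.20 on the 2 week arrays, and 8.03 and 7.70 on the 4 week arrays, again without overlap between control and later arrays. It was at -0.68 at 2 weeks (SE 0.14, adjusted p = 0.0504, limma) and fell by 0.86 at 4 weeks (SE 0.14, adjusted p = 0.0231). The 2 times differed by -0.18 (95% interval -0.55 to 0.20). As with Per1, its call at 4 weeks was lost without any 1 of the control or 4 week arrays (adjusted p = 0.0663 to 0.11).

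Nr1d1 moved in opposite directions at the 2 times. It read 9.11, 9.23 and 9.08 at 0 weeks, 8.27 and 8.59 on the 2 week arrays, and 11.14 and 11.01 on the 4 week arrays. Both 2 week arrays lay below every control, and both 4 week arrays lay well above every control. It fell by 0.71 at 2 weeks (SE 0.11, adjusted p = 0.027, limma), to 61.2% of control, and rose 3.83-fold at 4 weeks (log2 1.94, SE 0.11, adjusted p = 0.00284). The rise at 4 weeks passed without any 1 array (adjusted p = 0.00555 to 0.048). The fall at 2 weeks kept its direction but was lost without any 1 control or 4 week array (adjusted p = 0.0696 to 0.101). Of 811 genes called at both times, 2 were called in opposite directions, Nr1d1 and the locus of microRNA Mir219a-1. Mir219a-1 changed by -0.27 at 2 weeks and by 0.21 at 4 weeks (adjusted p = 0.0312 and 0.0413, limma) and was named after its values were seen. The opposite change of Nr1d1 was likewise known when the set was proposed, so these values describe it and do not test it.

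Nr1d2, the paralog that shares the repression of RORE genes, fell with Nr1d1 at 2 weeks and was close to control at 4 weeks. It read 9.58, 9.58 and 9.72 at 0 weeks, 7.91 and 8.28 on the 2 week arrays, and 9.55 and 9.55 on the 4 week arrays. It fell by 1.54 at 2 weeks (SE 0.11, adjusted p = 0.0068, limma), to 34.5% of control, a call that control replicate 3 decides (adjusted p = 0.0508 without it). At 4 weeks its change was -0.07 (SE 0.11, adjusted p = 0.754), with a 95% interval of -0.36 to 0.21. Relative to their own control means, Nr1d1 stood above Nr1d2 by 0.85 and 0.80 at 2 weeks and by 2.08 and 1.94 at 4 weeks. The paralogs were thus unequally changed at both times, a difference described here without a test.

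**Figure D2:**
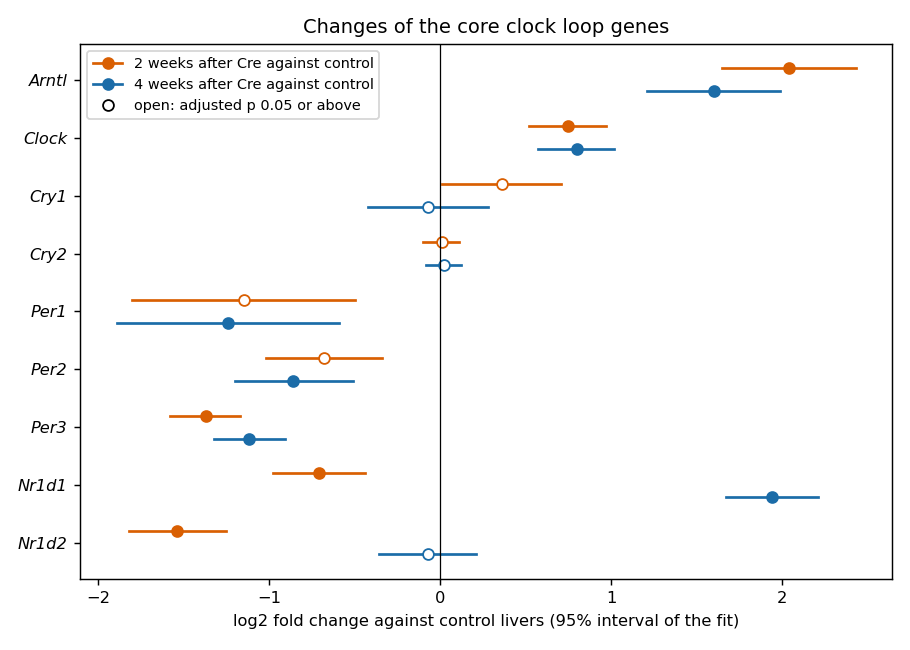
Log2 fold change (horizontal axis) of each measured member (rows) at 2 weeks and at 4 weeks after Cre, each against control livers, with the 95% interval of the limma fit as a line. Filled points passed an adjusted p of 0.05. The intervals of Nr1d1 lie on opposite sides of 0 at the 2 times, and those of Cry2 straddle 0 at both.

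Set directly against each other, the livers at 4 weeks and at 2 weeks differed in 1 gene of 16819 after adjustment, and that gene was Nr1d1 (0.00595% of genes called; limma). It was 6.26-fold higher at 4 weeks (log2 2.65, SE 0.12, adjusted p = 0.0155), the third largest difference in size among all genes. Because the opposite change of Nr1d1 was known beforehand, this comparison gives its size and is no independent test. Nr1d2 had the second smallest p of all genes and was at 1.46 (SE 0.13, unadjusted p = 3.42e-05, adjusted p = 0.234), so it did not pass. The other 7 measured members lay between -0.44 (Arntl) and 0.26 (Per3), with adjusted p-values of 0.616 to 0.985. The arrays of the 2 times did not overlap for 5 of 9 members (26.6% of all genes): Nr1d1, Nr1d2 and Per3 were higher at 4 weeks (15.0% of all genes) and Arntl and Cry1 lower (11.6%). An unadjusted p under 0.05 was reached by 1250 genes in this comparison. The size of the Nr1d1 difference held without any 1 array, at 2.49 to 2.80, but its adjusted p was then 0.0755 to 0.362, and 0.81 with the 2 later groups alone, where fewer arrays estimate the spread. Thra, which overlaps Nr1d1 on the opposite strand, was at 0.03 between the 2 times (SE 0.05, adjusted p = 0.897). The sinusoidal endothelial marker Clec4g was also higher at 4 weeks than in control livers, at 11.39 and 11.74 against 10.89, 11.13 and 10.87 (log2 0.60, SE 0.13, adjusted p = 0.0438), as 1 of 7 markers of that list. The mean of those 7 markers was 9.21 to 9.34 at 4 weeks, against 8.98 to 9.35 at 2 weeks, and their part in the Nr1d1 difference was not tested.

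**Figure D3:**
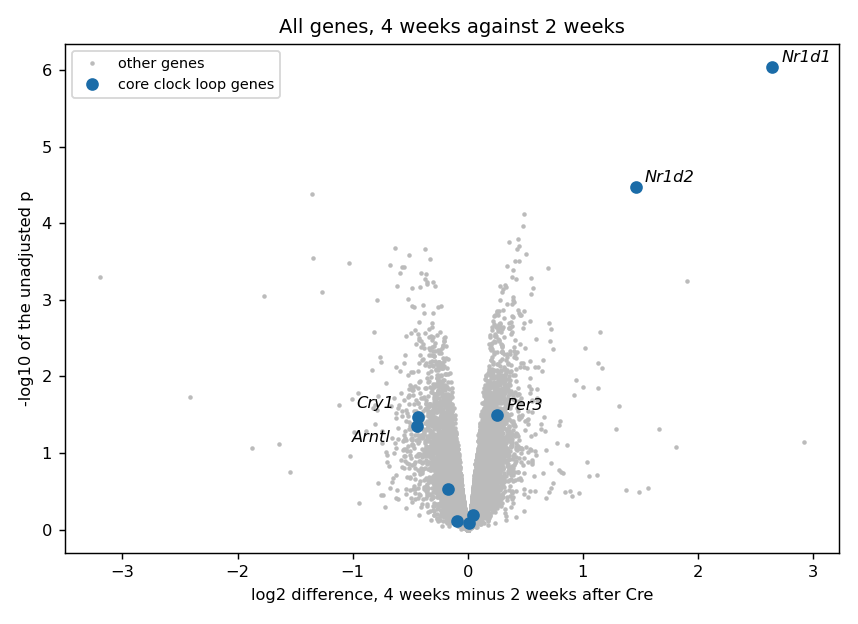
Log2 difference between 4 weeks and 2 weeks after Cre (horizontal axis) against −log10 of the unadjusted limma p (vertical axis), 1 point per gene for 16819 genes. Nr1d1 has the smallest p and Nr1d2 the second smallest, and the other core clock loop genes lie among the rest.

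The means of the dawn and day classes lay on opposite sides of control on all 4 arrays after Cre. Single genes did not all follow their class. The day gene Nr1d1 was above control at 4 weeks, and the dawn gene Cry1 was below every control on 4 week replicate 2. Cry2 stayed near control, and the day gene Nr1d2 was at -1.54 at 2 weeks but at -0.07 at 4 weeks. Averaged over Arntl, Clock and Cry1, the dawn class stood above its control mean by 1.15 and 0.95 at 2 weeks and by 0.86 and 0.69 at 4 weeks, while the control arrays spanned -0.11 to 0.10. The 6 day genes averaged -1.07 and -0.74 at 2 weeks and -0.19 and -0.26 at 4 weeks, with control arrays between -0.03 and 0.02. The gap between the classes was 2.22 and 1.69 at 2 weeks and 1.05 and 0.95 at 4 weeks. Of the dawn class, 2 of 3 rose at each time. Arntl weighed most in the mean of this class, at 2.04 and 1.60. Clock was at 0.75 and 0.80, and Cry1 at 0.36 and -0.07. Of the day class, 0 rose and 3 fell at 2 weeks, and 1 rose and 3 fell at 4 weeks. Over all genes 3.46% rose and 2.47% fell at 2 weeks, and 5.15% rose and 4.62% fell at 4 weeks. How far the day class lay from control at 4 weeks depended in large part on Nr1d1. The mean change of the class was -0.22 with Nr1d1 and -0.65 without it, against -0.91 and -0.95 at 2 weeks. These class means were chosen with the values known and carry no test.

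**Figure D4:**
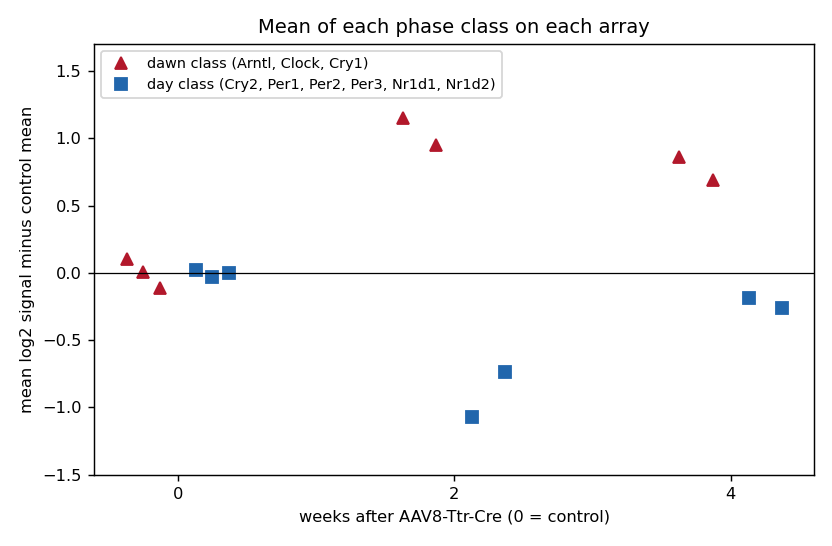
Mean log2 signal relative to the control mean (vertical axis) of the dawn class (triangles, 3 genes) and the day class (squares, 6 genes) on each array against weeks after AAV8-Ttr-Cre. The classes lie 1.69 to 2.22 apart at 2 weeks and 0.95 to 1.05 apart at 4 weeks, while the controls lie within 0.11 of 0.

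The gap between Arntl and its repressor Nr1d1 was not the same at the 2 times. Relative to the control means, Arntl stood above Nr1d1 by 2.86 and 2.64 at 2 weeks, and it was below Nr1d1, at -0.33 and -0.35, at 4 weeks. On the control arrays the same difference was 0.32, -0.16 and -0.17. The 4 week values were thus close in size to the largest control value, and which gene stood higher then is not settled. Arntl was therefore high beside low Nr1d1 transcript at 2 weeks, and both were high at 4 weeks. Rora, an activator at the same RORE elements, rose 1.49-fold at 2 weeks (log2 0.58, SE 0.05, adjusted p = 0.00732, limma) and 1.46-fold at 4 weeks (log2 0.55, SE 0.05, adjusted p = 0.00772). Its arrays read 9.59, 9.51 and 9.51 at 0 weeks, 10.09 and 10.14 on the 2 week arrays, and 10.06 and 10.10 on the 4 week arrays.

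Rora was among 18 measured modulators and paralogs of the core genes, of which 2 rose and 2 fell at each time, with a median change of 0.01 at 2 weeks and 0.04 at 4 weeks. Of all genes, 3.46% rose and 2.47% fell at 2 weeks, and 5.15% rose and 4.62% fell at 4 weeks. Kdm5a, a histone demethylase that assists the CLOCK and ARNTL pair, rose 1.68-fold and 1.59-fold (adjusted p = 0.047 and 0.0475, limma). Ciart, a repressor of that pair, fell by 2.86 and 2.64 (adjusted p = 0.00877 and 0.00867), and Usp2, a deubiquitinase with a strong daily rhythm, by 2.23 and 2.25 (adjusted p = 0.00244 and 0.00173). The ligase adaptor gene Ddb1 was at -0.02 and the corepressor gene Hdac3 at -0.14 at 2 weeks, both short of the threshold. The other members of this list are shown in the plot of gene lists.

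Downstream of the loop, of 20 measured output genes 1 rose and 8 fell at 2 weeks, and 1 rose and 10 fell at 4 weeks, with medians of -0.90 and -0.94. The shares of all genes were 3.46% higher and 2.47% lower at 2 weeks, and 5.15% higher and 4.62% lower at 4 weeks, with medians of -0.002 and 0.008. Wee1, the mitotic kinase gene driven from E-boxes, read 9.64, 9.74 and 9.75 at 0 weeks, 6.81 and 6.82 on the 2 week arrays, and 6.97 and 6.91 on the 4 week arrays. It fell by 2.89 at 2 weeks (SE 0.05, adjusted p = 8.51e-05, limma) and by 2.77 at 4 weeks (adjusted p = 0.000109). Dbp and Tef encode PAR bZIP activators of the family that binds D-boxes. They fell by 2.41 and 1.73 at 2 weeks (adjusted p = 0.00402 and 0.00789) and by 1.67 and 1.29 at 4 weeks (adjusted p = 0.00851 and 0.0112). Dbp read 9.51, 9.87 and 10.00 at 0 weeks, 7.38 and 7.39 on the 2 week arrays, and 8.04 and 8.20 on the 4 week arrays. The glucose transporter gene Slc2a2 fell by 0.88 at 2 weeks and by 0.33 at 4 weeks (adjusted p = 0.00732 and 0.0443), and the glycogen synthase gene Gys2 by 0.82 and 0.79 (adjusted p = 0.00789 and 0.00851). The gene of the bile acid enzyme cholesterol hydroxylase, Cyp7a1, was at -2.62 at 2 weeks (SE 0.55, adjusted p = 0.055) and fell by 2.80 at 4 weeks (SE 0.55, adjusted p = 0.0374), to 14.4% of control. Alas1, the first enzyme gene of heme synthesis, was at -1.14 (SE 0.61) and -1.29 (SE 0.61) and did not pass. Neither did the fatty acid elongase gene Elovl3, at -0.16 at 2 weeks and -1.10 at 4 weeks (SE 1.06 each). The called output genes thus lay mostly on the low side of control with the Per genes.

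**Figure D5:**
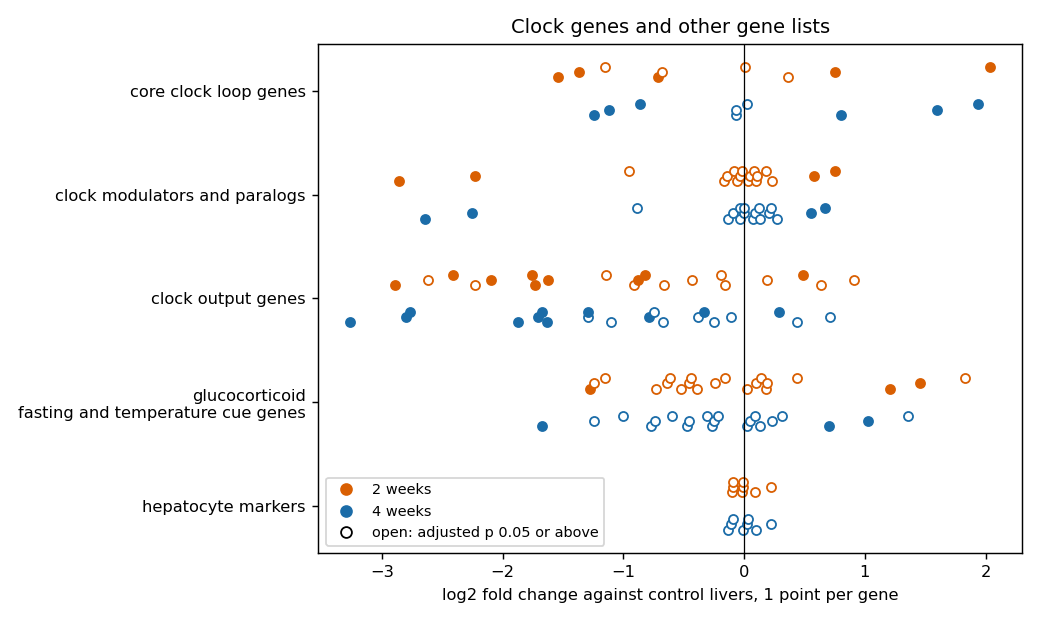
Log2 fold change against control livers (horizontal axis) at 2 weeks (upper points of a row) and 4 weeks (lower points) for the members of 5 gene lists, 1 point per gene, filled where the adjusted p was under 0.05. The core clock loop spreads to both sides of 0, the output genes lie mostly below 0, and the hepatocyte markers lie near 0.

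Genes that answer hormonal, feeding and temperature cues, which can set the phase of the liver clock, are given for the same arrays. Of 21 measured, 2 rose and 1 fell at each time, with medians of -0.24 at 2 weeks and -0.25 at 4 weeks. Of all genes 5.93% were called at 2 weeks and 9.77% at 4 weeks, and nothing is read from the count of this list. Tsc22d3, a glucocorticoid-induced gene, fell by 1.28 at 2 weeks (SE 0.13, adjusted p = 0.0131, limma) and by 1.67 at 4 weeks (SE 0.13, adjusted p = 0.00664). Pdk4, a fasting-induced kinase that spares glucose, rose 2.75-fold and 2.04-fold (adjusted p = 0.00851 and 0.0134), and the insulin receptor substrate gene Irs2 rose 2.32-fold and 1.62-fold (adjusted p = 0.0126 and 0.0282). Pck1, the gluconeogenic enzyme gene, was at 0.10 (SE 0.13) and 0.09 (SE 0.13), and the tyrosine aminotransferase gene Tat at -0.64 (SE 0.15) and -0.60 (SE 0.15), and neither passed. Igfbp1 passed over the mean of both times (log2 1.59, SE 0.32, adjusted p = 0.0304, limma) but at neither time alone. The other members of this list, the temperature genes among them, were not called at either time and are shown in the plot of gene lists. These values moved in the same arrays as the clock genes, and their part in the clock changes was not tested.

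Few markers of other liver cells were called, as of all genes. Of 8 Kupffer and macrophage, 7 sinusoidal endothelial, 8 stellate, 4 bile duct and 8 lymphocyte and neutrophil markers, 0 were called at 2 weeks, where 5.93% of all genes were. At 4 weeks, where 9.77% of all genes were called, Clec4g and the bile duct marker Sox9 (log2 0.43, SE 0.09, adjusted p = 0.0401, limma) were higher than control. The mean signal of the Kupffer and macrophage list was 8.60 to 8.98 at 2 weeks and 8.58 to 8.94 at 4 weeks, against 8.48 to 8.84 in control livers.

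The genes nearest to the course of Nr1d1 over the 7 arrays lay farther from it than those nearest to Arntl did from Arntl. Measured as the root mean square difference of log2 values centred on each gene's control mean, the closest to Nr1d1 were Sugct (0.559), Hyi (0.64), Cyp4a14 (0.65), Slc22a27 (0.659) and Nxpe2 (0.661). Sugct, which encodes a mitochondrial CoA transferase, stood at 0.23 and 0.20 at 2 weeks and at 2.57 and 1.67 at 4 weeks relative to control, so it did not share the low 2 week values. Arntl had closer companions, namely Dusp6 (0.184), a phosphatase that switches off ERK kinases, the choline kinase gene Chka (0.187), Denn2b (0.195), Osgin1 (0.248) and the fibrinogen gene Fga (0.251). Dusp6 stood above control by 1.93 and 1.97 at 2 weeks and by 2.09 and 1.65 at 4 weeks, close to the steps of Arntl. These distances describe 7 arrays that share the control group and carry no test.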

How the data were processed

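For 7 arrays of mouse liver the authors deposited 1 log2 signal per probe set, a scale read from the values. GCOS version 1.4 is named without a role, per the submitters' processing notes; how signals were summarised and normalized is not stated there. No detection calls or scan dates came with the values. Of 21093 probe sets, 17709 had 1 gene symbol, 187 several and 3197 none; of the named, 17648 matched the RefSeq gene table (GRCm38.p6) by gene number. For each of 16819 genes the probe set with the highest mean was kept.

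A linear model of the 3 groups was fitted to all genes with limma (version 3.58.1, R 4.3.3; 4 residual and 1.69 prior degrees of freedom), two-sided, with Benjamini-Hochberg adjustment over the 16819 genes and a threshold of 0.05. The steps were tested on simulated data. The number of arrays limits the precision. Each p-value sets a mean difference against a spread estimated from these samples and moderated over all genes. That spread is shared by the groups, although the 2 week replicates differed more. The SD of log2 differences between replicate arrays was 0.275 at 2 weeks, 0.206 at 4 weeks and 0.174 to 0.19 among controls. Alternatives were leaving out each array, a replicate block, quantile normalization, a filter on dim genes, trend and robust variances, fits of the compared groups only, all probe sets, and array weights.

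The members, lists, classes and motifs were chosen with earlier results of these data known. Named genes were all members, Dicer1, Lpl, Thra, up to 4 called and 2 uncalled genes of each other list (smallest adjusted p, highest mean), and the 5 nearest to Nr1d1 and to Arntl.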

Additional observations from a re-analysis of the deposited data

Results flagged for a closer look

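Nr1d1 differed between the 2 times after Cre: its 4 week arrays (11.14 and 11.01) were higher than its 2 week arrays (8.27 and 8.59) by 2.65 in log2 signal (SE 0.12, adjusted p = 0.0155, limma, n = 2 and 2). The call was lost without any 1 array (adjusted p = 0.0755 to 0.362) and with the 2 later groups alone (0.81). Against the same controls it was lower at 2 weeks and higher at 4 weeks, a pattern known when the set was proposed. No group held the 4 or more arrays needed to look for a single array far from the others.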

How the results depend on the processing

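Every call of a member kept its direction under all alternatives run, and every one failed to pass under at least 1 of them, the replicate block. With 1 array left out, the genes called ranged from 41 to 2168 at 2 weeks (997 with all arrays), 63 to 1948 at 4 weeks (1643 with all arrays), 570 to 2788 for both times together (2171 with all arrays) and 0 to 0 between the times, and the members called ranged from 2 to 6, 1 to 6, 4 to 7 and 0 to 0. Leaving out an array also lowers the degrees of freedom. With the groups compared alone, 276 genes and 3 members were called at 2 weeks and 0 and 0 between the times. With array weights 439 genes were called at 2 weeks. With a replicate block, 0, 2, 0 and 5 genes were called at 2 weeks, at 4 weeks, between the times and for both times together, and 0 members in each. The block also lowers the degrees of freedom, and control replicate 3 has no later array of its number. The lost calls therefore cannot be read as an effect of pairing alone. The labels name no source shared by replicates of the same number. Deviations of same-numbered arrays correlated at -0.065 to 0.009 between control and later arrays and at 0.111 between the times. In a group of 2 arrays the deviations mirror each other, so these values cannot decide whether the numbers pair the arrays. Per1 and Per2 at 2 weeks passed in 2 and 3 of the 7 other settings, quantile normalization among them. The mean change of the day class at 2 weeks was -0.74 and -1.07 without replicates 1 and 2, and at 4 weeks -0.65 without Nr1d1, an alternative added after seeing the data. Reversed signs concerned changes that were not called: Cry2 (-0.03 to 0.04 at 2 weeks, -0.02 to 0.04 between the times, -0.01 to 0.03 for both times with 1 array left out; -0.02 and -0.01 with quantile normalization, 0 with the block), Cry1 at 4 weeks (-0.19 to 0.05), and Clock (-0.09 to 0.18) and Per1 (-0.53 to 0.35) between the times. The causes were not tested. Signal over background was not given with the values, so what dimness limits is not known.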
